A study of Mus musculus with 16 samples.

Results

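Ddit4, Ddit4l, Txnip, Irs2 and Lpin1, described here as mTORC1 brakes and insulin-linked metabolic genes, were followed in organotypic slices of the mouse suprachiasmatic nucleus (SCN) treated with vasoactive intestinal peptide (VIP). The set was chosen with results of these same arrays already known, and every probe of each was taken: 8 probes, of 19893 probes and 10620 named genes in the globally normalised table. All 8 probes were also in both pairwise tables and in the table of raw intensities. Slices came from C57BL/6J pups of postnatal day 8 to 11 and were cultured for at least 7 days before recording. Circadian time (CT) was set by a PER2::LUC bioluminescence rhythm. There were 4 groups of 4 arrays each. CT10 slices were untreated and taken at CT10, while those of CT12 Veh were given vehicle at that time and taken 2 h later. Slices given 1 µM VIP at CT10 were taken 2 h later (CT12 VIP) or 6 h later (CT16 VIP). The labels give this dose, whereas the methods of the study name another one for the arrays. The series' design text puts the 6 h harvest at CT12, against CT16 in the labels, which were followed. No array was made from vehicle slices at CT16, so time after VIP and circadian time cannot be told apart in that group. The study's qPCR, on other SCN samples, did have a CT16 vehicle group, and Irs2 is among its primers. Those qPCR values were not used here. Nothing in the labels tells whether slices within a group were from different animals, so p-values measure only the spread between these arrays, and that may be partly technical. Slices are whole tissue, in which fewer cells of a type and less RNA per cell cannot be told apart.

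The kinase complex mTORC1 drives protein synthesis and growth when nutrients and growth factors are plentiful. Insulin and insulin-like growth factors reach it through receptor adaptors, PI3K and AKT, and several small proteins hold it back under stress. In the SCN, mTORC1 signalling is known to respond to light and to take part in the coupling of clock neurons. Ddit4 (also called REDD1) is a stress-induced inhibitor of mTORC1, and Ddit4l (REDD2) is its relative with the same action. Txnip encodes an alpha-arrestin that binds thioredoxin and restrains glucose uptake, and its transcription rises with glucose. Irs2 encodes an adaptor of the insulin and IGF1 receptors, and is a known target of the cAMP-responsive factor CREB in liver and pancreatic beta cells. Lpin1 encodes a phosphatidate phosphatase of glycerolipid synthesis that also acts as a transcriptional coactivator and is a substrate of mTORC1.

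In GRCm38.p6, the RefSeq annotation places Txnip at chr3:96557957-96561857, Ddit4l at chr3:137623672-137628332, Irs2 at chr8:10984681-11008929, Ddit4 at chr10:59949675-59951770 and Lpin1 at chr12:16535669-16653903. The 250 bases before the RefSeq start site were read for all 5 genes and are printed for the 4 whose levels differed most, to set the 2 relatives Ddit4 and Ddit4l beside Txnip and Irs2. Capitals mark the motif matches described next, and each sequence runs 5′ to 3′ on the strand of its gene.
Ddit4, chr10:59951771-59952020, minus strand: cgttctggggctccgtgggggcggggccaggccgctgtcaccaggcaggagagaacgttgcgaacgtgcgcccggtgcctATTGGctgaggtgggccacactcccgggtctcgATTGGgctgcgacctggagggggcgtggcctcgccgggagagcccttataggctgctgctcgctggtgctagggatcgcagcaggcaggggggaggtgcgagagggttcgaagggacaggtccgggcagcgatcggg
Ddit4l, chr3:137623422-137623671, plus strand: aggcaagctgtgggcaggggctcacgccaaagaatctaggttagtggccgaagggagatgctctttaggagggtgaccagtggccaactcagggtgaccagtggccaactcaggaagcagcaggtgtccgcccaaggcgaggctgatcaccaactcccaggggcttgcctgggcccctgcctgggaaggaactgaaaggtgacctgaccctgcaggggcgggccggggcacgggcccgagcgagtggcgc
Txnip, chr3:96557707-96557956, plus strand: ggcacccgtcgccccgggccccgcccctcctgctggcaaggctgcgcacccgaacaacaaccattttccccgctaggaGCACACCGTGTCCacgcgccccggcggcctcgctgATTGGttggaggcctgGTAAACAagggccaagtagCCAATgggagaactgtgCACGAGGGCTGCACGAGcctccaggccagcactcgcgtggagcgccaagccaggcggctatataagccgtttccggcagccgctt
Irs2, chr8:11008930-11009179, minus strand: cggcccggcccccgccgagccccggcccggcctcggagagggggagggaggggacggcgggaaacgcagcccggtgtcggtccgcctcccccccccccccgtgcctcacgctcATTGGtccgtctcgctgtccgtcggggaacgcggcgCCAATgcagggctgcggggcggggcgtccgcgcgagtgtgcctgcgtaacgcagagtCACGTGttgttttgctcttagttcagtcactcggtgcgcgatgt
Both strands were searched for 8 motifs, and shares are over 32817 RefSeq mouse promoters of the same 250 bases. The cAMP response element TGACGTCA (1.55% of promoters) and its shorter form TGACG (17.7%), which lies within the longer one, were not found in any of the 5 windows. The CCAAT box (CCAAT, read as ATTGG on the other strand, 33.8%) occurred at 2 places each in Ddit4, Txnip and Irs2. Txnip also held a carbohydrate response element (a pair of CACGNG motifs with a gap of 5 bases), which was in 0.0457% of promoters and began 85 bases before the start site. The same window had a FOXO site (GTAAACA, 3.16%) and a palindromic glucocorticoid response element (0.387%). Irs2 held 1 E-box (CACGTG, 6.02%), 44 bases before its start site. Ddit4l and Lpin1 had none of the 8 motifs, and TATAAA (12.4%) was in none of the 5 windows. The Lpin1 start site in the table lies inside the gene, and its window is not shown. The matches in these sequences do not overlap each other. They are descriptions of letters and not evidence of binding.

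Levels are the authors' normalised values on a variance-stabilised scale close to log2, and a probe counted as detected at a detection p of 0.01 or less. Between 8019 and 16923 probes were detected per array, with group medians from 10394 to 14099.5. Of 12 SCN marker genes, 9 had a measured probe, and Avp, Vip and Rorb were detected on all 16 arrays. Six6 was detected on 1 array, and Vipr2 had no measured probe.

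Ddit4 was lower on every VIP array than on every CT10 or CT12 Veh array, at both times. Its level was 9.18, 8.94, 9.45 and 9.25 on the CT10 arrays (replicates 1, 3, 4 and 5) and 9.23, 9.14, 9.33 and 9.38 on the CT12 Veh arrays. The 4 CT12 VIP arrays gave 8.56, 8.78, 8.62 and 8.73, and the 4 CT16 VIP arrays gave 8.45, 8.64, 8.87 and 8.84. The untreated and vehicle slices thus overlapped with each other, the slices of both VIP times overlapped with each other, and no VIP array reached the lowest array without VIP. Median raw intensity was 643.7 in CT12 Veh and 417.3 in CT12 VIP. In the pairwise table the difference CT12 VIP minus CT12 Veh was -0.61 (SE 0.072, 4 arrays a group). From 2 h to 6 h the difference was 0.03 (SE 0.093), and CT16 VIP minus CT12 Veh, in the global table, was -0.57 (SE 0.094). The 6 h difference no longer passed the threshold in 1 of 17 alternatives, neqc values without a detection filter.

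**Figure D1:**
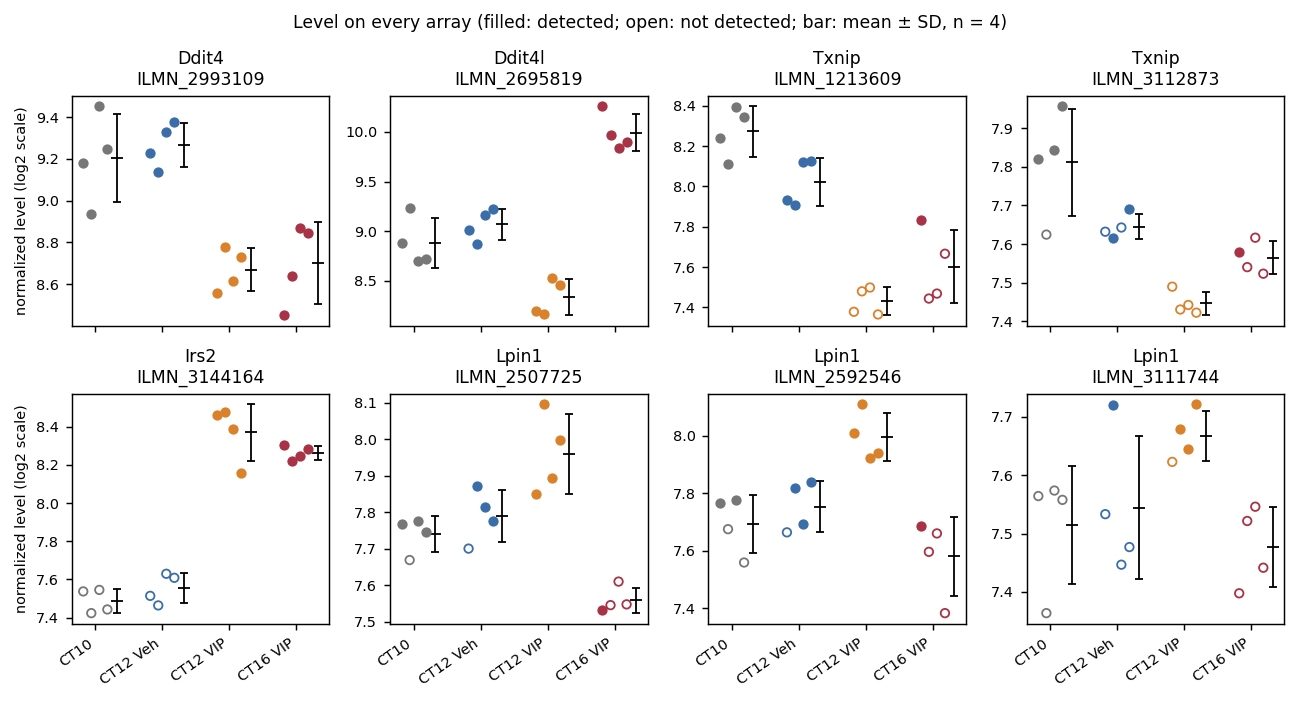
Normalised level (log2 scale, y axis) of each of the 8 probes on every array of the 4 groups (x axis), with filled points for arrays where the probe was detected, open points where it was not, and bars for the mean ± SD of 4 arrays; y axes differ between panels and do not start at 0. Ddit4 was low in both VIP groups, Ddit4l was lowest in CT12 VIP and highest in CT16 VIP, and Irs2 was detected only in the 2 VIP groups.

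Ddit4l, the relative of Ddit4, was lower at 2 h and higher at 6 h. Its level was 8.88, 9.23, 8.69 and 8.71 on the CT10 arrays and 9.01, 8.87, 9.17 and 9.22 on the CT12 Veh arrays. The CT12 VIP arrays gave 8.20, 8.16, 8.53 and 8.45, all below every untreated and vehicle array. On the CT16 VIP arrays it reached 10.26, 9.97, 9.84 and 9.90, all above every other array. Median raw intensity went from 544.1 in CT12 Veh to 313.95 in CT12 VIP and 1148.65 in CT16 VIP. The difference CT12 VIP minus CT12 Veh was -0.75 (SE 0.091), the 3rd most negative of 17605 probes. CT16 VIP minus CT12 VIP was 1.66 (SE 0.10), the most positive of 19110 probes and the 2nd in absolute size. These ranks are only a description, since the gene was chosen with results of these arrays known. CT16 VIP minus CT12 Veh was 0.92 (SE 0.099). Ddit4 and Ddit4l thus lay on the same side of CT12 Veh at 2 h and on opposite sides of it at 6 h, a time without its own vehicle group.

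Txnip was measured by 2 probes that RefSeq accessions assign to different transcripts, and both were lowest in CT12 VIP. The brighter one, ILMN_1213609 (NM_023719), was at 8.24, 8.11, 8.40 and 8.35 on the CT10 arrays and at 7.93, 7.91, 8.12 and 8.13 on the CT12 Veh arrays. It was at 7.38, 7.48, 7.50 and 7.36 on the CT12 VIP arrays and at 7.83, 7.44, 7.47 and 7.67 on the CT16 VIP arrays. It was detected on all 8 arrays without VIP, on 0 of 4 CT12 VIP arrays and on 1 of 4 CT16 VIP arrays. All VIP arrays lay below all vehicle arrays, while both VIP groups overlapped. At 2 h it was -0.62 (SE 0.070) from vehicle on the measured scale. That was the 8th most negative difference, a description only, since the gene was chosen with results of these arrays known. Because the probe was not well above background after VIP, the bound is at least 1.32-fold lower. That bound takes the faintest detected signal on each array as the level of an undetected probe. CT16 VIP minus CT12 VIP was 0.18 (SE 0.087), and CT16 VIP minus CT12 Veh was -0.42 (SE 0.093).

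The other Txnip probe, ILMN_3112873 (NM_001009935), was dimmer. It was detected on 3 arrays at CT10 and 2 of CT12 Veh, against 0 of CT12 VIP and 1 of CT16 VIP. Levels ranged from 7.62 to 7.96 in CT10, 7.62 to 7.69 in CT12 Veh, 7.42 to 7.49 in CT12 VIP and 7.52 to 7.62 in CT16 VIP. Its CT12 VIP arrays were below all other arrays. The difference at 2 h was -0.21 (SE 0.060), with a bound of at least 1.01-fold lower. At 6 h it was -0.08 (SE 0.063) from CT12 Veh, the arrays of those groups overlapped, and a difference was not detectable at this signal.

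Irs2 went from undetected to detected with VIP. Without VIP its probe was detected on 0 of 8 arrays, with levels of 7.54, 7.42, 7.55 and 7.44 at CT10 and 7.51, 7.46, 7.63 and 7.61 in CT12 Veh. With VIP it was detected on 8 of 8 arrays, at 8.46, 8.48, 8.39 and 8.16 in CT12 VIP and 8.30, 8.22, 8.24 and 8.28 in CT16 VIP. The lowest VIP array was thus above the highest array without VIP. Raw intensity was 107.6 to 140.8 in CT12 Veh, 243.8 to 384.9 in CT12 VIP and 172.4 to 340.7 in CT16 VIP. CT12 VIP minus CT12 Veh was 0.85 (SE 0.076), with a bound of at least 1.64-fold higher. At 6 h it was still 0.71 (SE 0.067) from CT12 Veh, at least 1.49-fold higher. CT16 VIP minus CT12 VIP was -0.10 (SE 0.077), and those groups overlapped.

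Lpin1 had 3 probes, whose group means shared 1 order: CT12 VIP highest, then CT12 Veh and CT10, and CT16 VIP lowest. The arrays of CT12 Veh and CT10 overlapped at all 3 probes, so the order of these 2 groups is not resolved. Probe ILMN_2507725 (NM_015763) was at 7.77, 7.67, 7.78 and 7.75 on the CT10 arrays, and at 7.70, 7.87, 7.81 and 7.77 on the CT12 Veh arrays. It was at 7.85, 8.10, 7.89 and 8.0 on the CT12 VIP arrays and at 7.53, 7.55, 7.61 and 7.55 on the CT16 VIP arrays. Every CT16 VIP array was below every other array, while CT12 VIP overlapped with CT12 Veh. Probe ILMN_2592546 (NM_172950) was at 7.77, 7.68, 7.78 and 7.56 in CT10, and at 7.66, 7.82, 7.69 and 7.84 in CT12 Veh. It was at 8.01, 8.11, 7.92 and 7.94 in CT12 VIP and at 7.69, 7.60, 7.66 and 7.38 in CT16 VIP. For this probe it was CT12 VIP that stood above every other array. The dimmest, ILMN_3111744 (also NM_172950), ranged from 7.36 to 7.72 over all 16 arrays and was detected on 4 of them.

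At 2 h the Lpin1 differences from vehicle were 0.18 (SE 0.070), 0.25 (SE 0.068) and 0.12 (SE 0.069), in the order of the probes above. From 2 h to 6 h they were -0.40 (SE 0.070), -0.41 (SE 0.079) and -0.19 (SE 0.066), and the arrays of both VIP groups did not overlap at any of the 3 probes. The probes were detected on 4, 4 and 3 of the CT12 VIP arrays but on only 1, 1 and 0 of the CT16 VIP arrays, so the 6 h levels lie mostly at background and the sizes are uncertain. Few probes of any gene were detected on CT16 VIP 3 and 4, and the part of this in the lost detection was not tested. On CT16 VIP 3 the raw intensity of ILMN_2507725 was 187.3, within the 184.8 to 221.7 of CT12 VIP. That array was brighter as a whole, with a median raw intensity of 149.7 against 92.1 to 129.5 on the CT12 VIP arrays. The probe was not detected on it (detection p of 0.079), so these raw values are not on 1 scale. With background-corrected (neqc) values the differences from 2 h to 6 h were -1.30, -1.31 and -0.77. No fold bound above 1 could be given for the probe not detected at 6 h. CT16 VIP minus CT12 Veh was -0.23 (SE 0.066), -0.17 (SE 0.080) and -0.07 (SE 0.076), with no overlap only for the first. The 2 probes of one transcript thus differed in size but not in sign. Without arrays of fewer than 10000 detected probes, a choice made after seeing the data, the 3 differences from 2 h to 6 h were -0.46, -0.35 and -0.23.

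**Figure D2:**
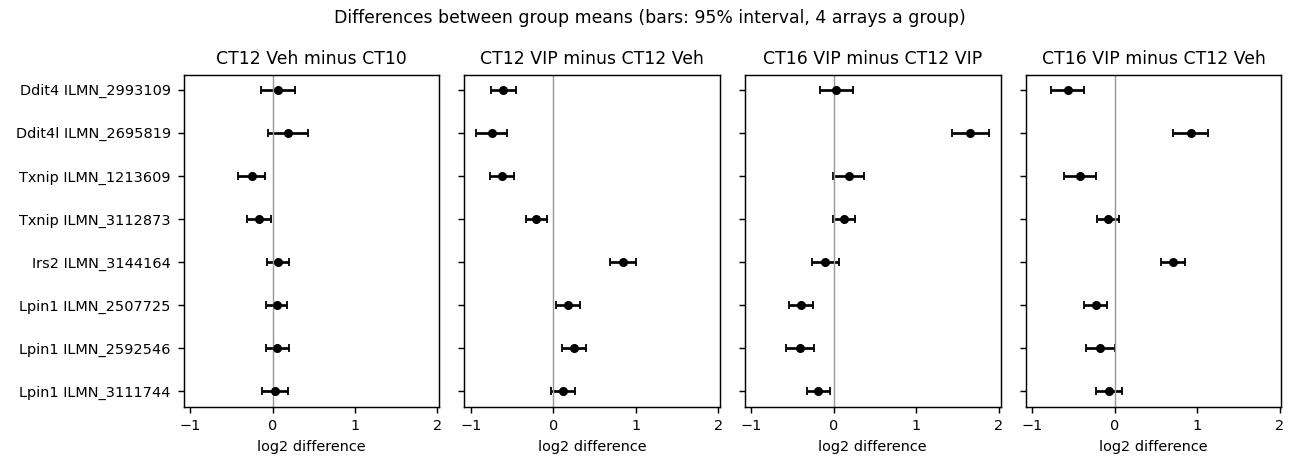
Difference of group means (log2 scale, x axis) for each of the 8 probes (y axis) in 4 comparisons, with 95% intervals from 4 arrays a group. The CT12 Veh minus CT10 differences lie between -0.25 and 0.19. Relative to CT12 Veh, Ddit4l was at -0.75 in CT12 VIP and at 0.92 in CT16 VIP, for which no vehicle group of the same time exists.

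Counts over the 8 probes stand beside the background only as a description, since the genes were chosen on these contrasts. In CT12 VIP against CT12 Veh, 3 probes were lower (Ddit4, Ddit4l and 1 Txnip probe) and 2 higher (Irs2 and Lpin1 ILMN_2592546) at an adjusted p under 0.05, and 4.19% of all probes passed (1.47% lower and 2.73% higher). In 6 of the 8 the groups did not overlap, as for 9.65% of all probes. In CT16 VIP against CT12 VIP, 2 Lpin1 probes were lower and Ddit4l was higher, with 1.79% of all probes passing (0.958% lower and 0.832% higher). There 5 of the 8 did not overlap, against 7.82% overall. In CT16 VIP against CT12 Veh, Ddit4 and 1 Txnip probe were lower and Ddit4l and Irs2 higher, with 3.31% passing (1.35% lower and 1.96% higher). There 5 of the 8 did not overlap, against 9.18% overall. These comparisons share the CT12 VIP or CT12 Veh arrays, so they are not independent of each other.

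The comparison of vehicle with untreated slices asks how far handling and the passage from CT10 to CT12 alone moved these genes. It uses the CT12 Veh arrays, which also entered the contrasts on which the genes were chosen. Its p-values are therefore given as a description and are not independent of that choice. None of the 8 probes passed limma's test adjusted over all probes, and all 8 overlapped between the groups, whereas 3.78% of all probes did not. No probe on the array passed (0% of 19893), while 1384 (6.96%) had an unadjusted p under 0.05. The largest of the 8 differences was that of Txnip ILMN_1213609, -0.25 (SE 0.076, 95% interval -0.42 to -0.09, adjusted p = 0.653, unadjusted p = 0.00579). The other Txnip probe was at -0.17 (SE 0.069, interval -0.32 to -0.02, adjusted p = 0.708). Both Txnip intervals, which are not adjusted for the number of probes, leave out 0. Ddit4l was at 0.19 (SE 0.11, 95% interval -0.05 to 0.43, adjusted p = 0.780) and Ddit4 at 0.06 (SE 0.094, interval -0.14 to 0.27, adjusted p = 0.929). Irs2 differed by 0.07 (SE 0.060, adjusted p = 0.876), with both groups below detection. The 3 Lpin1 probes were at 0.05, 0.06 and 0.03 (adjusted p = 0.903, 0.901 and 0.963).

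Some markers of other cell types differed between the groups as well. Of all named genes, 4.85% passed in CT12 VIP against CT12 Veh. Of 8 ependymal genes, 5 were lower after 2 h of VIP than after vehicle (Tmem212, Rarres2, Mia, Dynlrb2 and Rsph1), with a list median of -0.28 against -0.01 for all probes. The mean level of the list was 8.37 to 8.61 on the CT12 Veh arrays, 8.13 to 8.22 on the CT12 VIP arrays, 7.99 to 8.32 on the CT16 VIP arrays and 8.07 to 8.41 on the CT10 arrays. The CT12 VIP arrays were thus below all CT12 Veh arrays but within the range of the untreated ones. In CT12 Veh against CT10 the list median was 0.23, against 3.91e-05 for all probes, with 0 genes passing. The lower level after VIP is therefore relative to vehicle slices whose median stood above that of untreated slices. The defining ciliary regulator Foxj1 was detected on 4 of 16 arrays. In CT16 VIP against CT12 Veh, 3 of the 8 ependymal genes were lower, as were 1 of 8 astrocyte genes (Aqp4) and 1 of 7 measured microglial genes (P2ry12). There 4.34% of all named genes passed, and 1 gene of a short list is not read as a change of its cell type. The astrocyte list was at 9.59 to 9.95 in CT10, 9.63 to 9.76 in CT12 Veh, 9.54 to 9.71 in CT12 VIP and 9.48 to 9.55 in CT16 VIP, so that the last group lay below both groups without VIP. The microglial list was at 7.82 to 8.05 in CT10, 7.85 to 7.97 in CT12 Veh, 7.80 to 7.93 in CT12 VIP and 7.67 to 7.84 in CT16 VIP, the last again below CT12 Veh. The SCN neuron list was at 7.68 to 8.06 in CT12 Veh, 7.91 to 8.08 in CT12 VIP and 7.88 to 8.01 in CT16 VIP, with 1 of its genes, Rorb, higher at both times. The oligodendrocyte and general neuronal lists overlapped between CT12 Veh and both VIP groups, with 0 oligodendrocyte genes and 1 neuronal gene passing at each time. The part of these cell types in the levels of the 5 genes was not tested.

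Over the 16 arrays, the probes fell into 2 patterns of variation, given as a description since the arrays share the group structure. Ddit4 varied with Txnip ILMN_1213609 (Pearson r = 0.82, Spearman rho = 0.82) and opposite to Irs2 (r = -0.85, rho = -0.70). Ddit4l varied opposite to the 3 Lpin1 probes (r = -0.90, -0.75 and -0.70) and showed little relation to Ddit4 (r = -0.16, rho = -0.01). The 2 Txnip probes had r = 0.88 with each other, and the 3 Lpin1 probes 0.66 to 0.85. The genes most like Irs2 over the 16 arrays were Emd (r = 0.98), Pde4a (0.96) and Crem (0.96). Those most like Ddit4 were Tmem88 (0.94), Ndufa12 (0.87) and Ccpg1os (0.86), and those most like Ddit4l were Mybbp1a (0.92), Id2 (0.91) and Traf1 (0.90). For Txnip they were 2810459M11Rik (0.89), Trp53rka (0.87) and Ccdc190 (0.87), and for Lpin1 they were Dlc1 (0.86), Bcl2 (0.83) and Pcdhga7 (0.82).

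The wider pathway was read from 10 lists of genes that left out the 5 genes above, each gene by its brightest probe. The lists were drawn up with results of these arrays known and hold genes such as Dusp1 and Per1, so neither their share of calls nor the adjusted p-values of their genes are independent evidence. At 2 h, 16 of 152 measured genes (10.5%) passed, 9 higher and 7 lower, against 4.85% of all named genes. Among 33 measured mTORC1 subunits and upstream regulators, 3 were lower and none higher. Mlst8, a core subunit of the complex, fell by 0.43 (SE 0.070, adjusted p = 0.000665, lower at 2 of 3 probes). Sesn1, a sestrin that restrains mTORC1 when leucine is scarce, fell by 0.33 (SE 0.086, adjusted p = 0.0325, 1 of 2 probes). Lamtor2, a part of the lysosomal scaffold on which mTORC1 is activated, fell by 0.23 (SE 0.062, adjusted p = 0.0399). The median over the list was -0.00363, against -0.00865 for all probes. None of 13 measured mTORC1 effectors passed.

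Of 13 genes for insulin and IGF receptors, adaptors and ligands, Igfbp3, an IGF-binding protein, rose by 0.31 (SE 0.080, adjusted p = 0.0322, 1 of 2 probes). Of 16 PI3K and AKT genes, Pik3r1, the regulatory subunit that joins PI3K to Irs adaptors, fell by 0.50 (SE 0.067, adjusted p = 8.04e-05), and all 4 of its probes passed. Thioredoxin reductase, Txnrd1, which recycles the protein that Txnip binds, rose by 0.30 (SE 0.081, adjusted p = 0.0442). Ppargc1a, a coactivator that lipin 1 is known to partner in mouse liver, rose by 0.23 (SE 0.065, adjusted p = 0.0484).

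Among FOXO-linked, hypoxia-linked and ATF4-linked genes at 2 h, calls went both ways. Bcl6, a transcriptional repressor, fell by 0.26 (SE 0.067, adjusted p = 0.0268). The prolyl hydroxylase subunit P4ha2 fell by 0.22 (SE 0.061, adjusted p = 0.0472, 1 of 3 probes), and was detected on only 3 vehicle and 2 VIP arrays. Ndrg1 rose by 0.32 (SE 0.082, adjusted p = 0.0302), the amino acid transporter chain Slc3a2 by 0.30 (SE 0.077, adjusted p = 0.0322), and the transcription factor Cebpb by 0.52 (SE 0.074, adjusted p = 0.000131). Cebpb was detected on 1 vehicle array and on 4 VIP arrays, so the size of its rise is uncertain. Of 13 glucocorticoid receptor-linked genes, a class to which Ddit4 itself is known to belong, 3 were higher and 1 lower. Dusp1, a MAP kinase phosphatase, rose by 2.04 (SE 0.085, adjusted p = 1.90e-11), and Errfi1, an inhibitor of EGF receptor signalling, by 0.56 (SE 0.082, adjusted p = 0.000173). The clock gene Per1 was undetected in vehicle and at least 1.13-fold higher (adjusted p = 0.00172). The lower gene, named after its values were seen, was the transcription factor Klf9, which fell by 0.30 (SE 0.063, adjusted p = 0.00674, 1 of 2 probes).

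In CT16 VIP against CT12 Veh, 18 of 165 pathway genes passed (10.9%, against 4.34% of all named genes), 7 higher and 11 lower. Sesn1 fell by 0.70 (SE 0.11, adjusted p = 0.00144, both probes) and was the only 1 of 36 mTORC1 subunits and regulators to pass, on the same side as Ddit4 and opposite to Ddit4l. Eif4e, the cap-binding protein released when mTORC1 is active, rose by 0.32 (SE 0.073, adjusted p = 0.0266), 1 of 16 effectors. Irs1, the other main insulin receptor adaptor, fell by 0.33 (SE 0.084, adjusted p = 0.0431), so that it and Irs2 lay on opposite sides of CT12 Veh. Igfbp3 rose by 0.66 (SE 0.10, adjusted p = 0.00140, both probes). Pik3r1 fell by 0.54 (SE 0.090, adjusted p = 0.00267, 3 of 4 probes), and Trib2, a pseudokinase, fell by 0.32 (SE 0.076, adjusted p = 0.0292).

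Lipid and redox genes were also among those that passed at 6 h. Of 15 lipin and glycerolipid genes 3 were lower. Plpp3, a lipid phosphate phosphatase, fell by 0.46 (SE 0.11, adjusted p = 0.0298, 1 of 2 probes), and Ppargc1a fell by 0.27 (SE 0.070, adjusted p = 0.0457). Gpam, an enzyme of the first step of glycerolipid synthesis, was undetected in CT16 VIP and at least 1.07-fold lower (adjusted p = 0.0188). Txnrd1 rose by 0.56 (SE 0.084, adjusted p = 0.00116). Of 15 FOXO-linked genes, Gadd45a, a growth arrest gene, rose by 0.48 (SE 0.077, adjusted p = 0.00215). Cat (catalase) fell by 0.34 (SE 0.078, adjusted p = 0.0249), as did Pdk4, a kinase that restrains pyruvate use, by 0.34 (SE 0.073, adjusted p = 0.0168). Ndrg1 rose by 0.47 (SE 0.090, adjusted p = 0.00870) and Slc3a2 by 0.37 (SE 0.077, adjusted p = 0.0141). Of the glucocorticoid receptor-linked genes, Dusp1 rose by 0.97 (SE 0.096, adjusted p = 3.01e-05), while Tsc22d3 fell by 0.42 (SE 0.088, adjusted p = 0.0147) and Klf9 by 0.39 (SE 0.076, adjusted p = 0.00833).

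**Figure D3:**
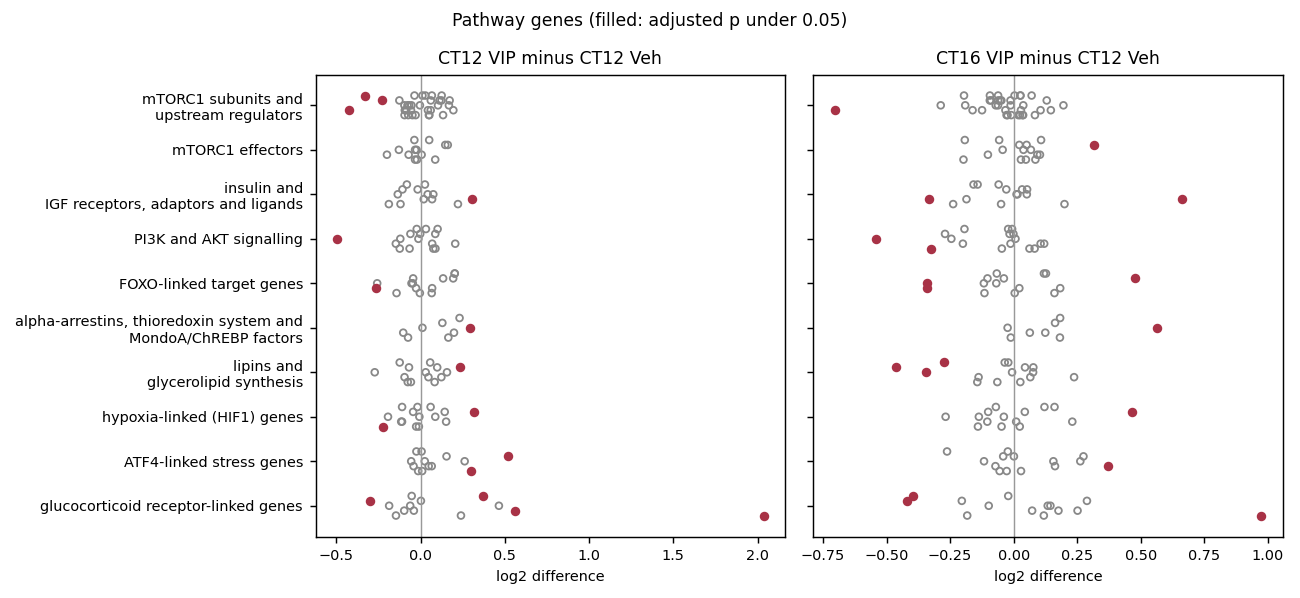
Difference from CT12 Veh (log2 scale, x axis) of each measured gene in 10 pathway lists (y axis) for CT12 VIP and CT16 VIP, with filled points for an adjusted p under 0.05; x axes differ between panels. Most genes lie near 0, and 16 of 152 and 18 of 165 passed.

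Between the VIP groups, 4 of 161 pathway genes passed (2.48%, against 2.22% of all named genes), a share near the background. Ppargc1a fell by 0.50 (SE 0.074, adjusted p = 0.00237), which put it, like 2 Lpin1 probes, lower at 6 h than at 2 h. Bcl6 rose by 0.43 (SE 0.068, adjusted p = 0.00349), Txnrd1 rose by 0.27 (SE 0.064, adjusted p = 0.0457), and Dusp1 fell by 1.05 (SE 0.081, adjusted p = 5.18e-06). None of the 36 mTORC1 subunits and regulators, 14 insulin and IGF genes or 17 PI3K and AKT genes passed. In CT12 Veh against CT10, 0 of 165 pathway genes passed limma's test.

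Many of the smaller calls were lost under other settings of the processing or with arrays left out. At 2 h, Mlst8, Pik3r1, Cebpb, Errfi1, Per1 and Dusp1 passed under all 19 alternatives, while Sesn1, Lamtor2, Igfbp3, Txnrd1, Ppargc1a, Ndrg1, P4ha2, Bcl6 and Slc3a2 each lost the call under 8 to 13 of the 18 or 19 run. For the 6 h slices against vehicle, Eif4e, Irs1, Trib2, Cat, Plpp3 and Ppargc1a lost it under 9 to 12 of 18 and Tsc22d3 under 6, while Igfbp3, Gadd45a and Dusp1 passed under all 18. Txnrd1 between the VIP groups lost the call under 14 of 19.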

How the data were processed

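RNA of 16 SCN slices was amplified and hybridised to 1-colour Illumina MouseWG-6 v2 arrays. Per the file headers and the study's methods, the authors filtered out probes whose detection p exceeded 0.01 on every array, and applied the variance-stabilising transformation and quantile normalisation of lumi. The deposited tables hold these log2-like values for all 16 arrays (19893 probes) and for 2 pairs of groups (17605 and 19110 probes). A further deposited table holds raw intensity with a detection p-value for each of 45281 probes. The chip of each array was not given in the sources used here, and the number of arrays limits the precision.

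Pairs of groups were compared with limma 3.58.1 in R 4.3.3 (lmFit, eBayes, 2-sided, Benjamini-Hochberg over all probes at 0.05). Pairwise values were used for CT12 VIP against CT12 Veh and CT16 VIP against CT12 VIP, and global values otherwise. Probes were named through platform annotation and RefSeq identifiers (16733 named). Named genes were every probe of the 5 genes, up to 3 genes called per pathway list and comparison by size, and the 3 genes most correlated with each. The members and lists were chosen with earlier results of these data known, so no p is given for the 5 genes in comparisons with VIP. Promoter sequences and positions are from RefSeq (GRCm38.p6), and all 5 genes matched. The fits were run on simulated data only to check that planted differences kept their sign. Those data had independent noise for each probe and no differences in quality between arrays, so they do not test the calls made here. Alternatives were neqc values, log2 quantile values, other tables and filters, 1 fit over 16 arrays, a replicate block, array weights, the mean of a gene's probes, each array left out, and, added later, poorly detected arrays left out or detection as a covariate.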

Additional observations from a re-analysis of the deposited data

Results flagged for a closer look

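Of 32 sets of 4 arrays (8 probes in 4 groups), 1 had an array far from the other 3, and chance alone gives about 1 in 20. It was the dimmest Lpin1 probe, ILMN_3111744, on CT10 replicate 3, at 7.36 against 7.56 for the nearest array, where the probe was not detected on any CT10 array.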

How the results depend on the processing

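In CT12 VIP against CT12 Veh, 738 probes passed (480 higher). Background-corrected (neqc) values gave 487 (372 higher), the same without a detection filter 389 (314 higher), and 1 fit over 16 arrays 452 (356 higher). Leaving out single arrays gave 548 to 653. Of the pathway genes 16 passed, against 7, 8 and 9 in those settings, 9 without the arrays of fewer than 10000 detected probes, and 9 to 12 without single arrays, where CT12 Veh 1 and 4 and CT12 VIP 1 to 4 each moved the count by over 1.5 times. In CT16 VIP against CT12 VIP, 342 probes became 175 with neqc, 157 without the filter, 516 in 1 fit and 616 with detection as a covariate. They were 189 to 454 without single arrays, the lowest without CT12 VIP 2 (202), 3 (197) or 4 (189). The pathway count of 4 became 8 with the covariate and 7 with the mean of a gene's probes, and 3 to 5 without single arrays. In CT12 Veh against CT10, 0 probes became 1 with log2 quantile values, with probes detected on every array of a group, and in 1 fit, and 0 to 1 without single arrays. In CT16 VIP against CT12 Veh, 659 probes became 414 with neqc, 326 without the filter, 437 without the poorly detected arrays and 1042 with the covariate. They were 400 to 1085 without single arrays, 407, 429, 400 and 418 without CT12 Veh 1, 2, 3 and 4, and 1085 without CT16 VIP 1. The 18 pathway genes became 7, 7 and 9 in the first 3 of these settings, and 8 to 22 without single arrays, with 11 and 8 without CT12 Veh 1 and 2. The cause was not tested.

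For the 5 genes, no difference in a comparison with VIP that had passed the threshold changed sign. Every alternative reuses the arrays on which the genes were chosen, so this describes the processing and is not independent support. Lpin1 ILMN_2592546 no longer passed at 2 h in 10 of 18 alternatives (0.21 to 0.68), among them those without CT12 Veh 1 or 3 and CT12 VIP 1, 2 or 4. From 2 h to 6 h it was lost in 3 of 18, among them without CT12 VIP 2. Txnip ILMN_1213609 at 6 h against vehicle was lost in 6 of 17 (-1.32 to -0.37), among them without CT12 Veh 3 or 4 and CT16 VIP 2 or 3. Ddit4 at 6 h against vehicle was lost in 1 of 17, neqc values without the filter. Background-corrected values were more extreme for dim probes, as for Txnip (-1.91) and Irs2 (2.16) at 2 h. CT12 Veh minus CT10 ranged from -0.0247 (without CT10 replicate 3) to 0.147 for Ddit4 and from -0.0292 (without CT12 Veh replicate 2) to 0.0618 for Lpin1 ILMN_3111744 without single arrays, and the latter was also negative without CT10 replicate 3 (-0.0210).

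Same-numbered arrays did not all deviate together (r = -0.09 to 0.26 at 2 h, and -0.32 to -0.08 from 2 h to 6 h), so the numbers were not taken as pairs. Arrays of different numbers had r = -0.16 to 0.14 at 2 h and -0.17 to 0.27 from 2 h to 6 h. The highest value at 2 h, 0.26, was that of CT12 Veh 1 with CT12 VIP 1. The replicate block gave 870, 159, 0 and 440 probes in the order above. In CT12 Veh against CT10 it kept only the numbers that both groups shared, which left out CT10 replicate 5 and CT12 Veh replicate 2. On the arrays kept, Lpin1 ILMN_2592546 (-0.00688) and ILMN_3111744 (-0.0149) were negative. A block of equal pairs does not itself change a difference of means.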
